A study of Homo sapiens with 8 samples.

Results

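The cytosolic and mitochondrial heat shock chaperones were followed as a list of 10 genes in nuclear RNA of HAP1 cells: HSPA1A, HSPA1B, HSPA8, HSPA9, HSPH1, DNAJB1, HSP90AA1, HSP90AB1, HSPD1 and HSPE1. The table rows were named with the GENCODE annotation of hg38, by stable identifier or, for an assembled locus, by the gene of the same strand with the largest Jaccard index of the genomic spans (shared length over joint length), with a minimum of 0.5. By this rule 7 of the 10 genes had a row in the short-read table, which held 62727 rows of which 26066 were tested, and all 10 had transcripts in the long-read table. HSPA1B, DNAJB1 and HSPE1 had no short-read row of their own under the rule, and the rows that cover them are given separately.

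HAP1 is an adherent, near-haploid human line derived from the chronic myeloid leukaemia line KBM-7. The libraries came from untreated cells in standard medium, with no heat treatment in the labels, so the levels below are those of unstressed cultures of 1 cell line. Nuclei were extracted with urea and detergent, the supernatant being the nucleoplasm fraction and the pellet the chromatin fraction, and ERCC spike-in RNA was added to each. Short reads were collected from 3 chromatin and 3 nucleoplasm libraries and long reads from 2 chromatin libraries. The fraction was taken from the sample titles, because another label field gives chromatin for the nucleoplasm libraries too, and the retained nuclear RNA MALAT1 went with the titles, with a mean of 965711 normalized counts in the chromatin libraries and 113268 in the nucleoplasm libraries. Recovered depth ran from 38895027 to 43804918 reads in chromatin and from 75737601 to 79523938 in nucleoplasm. The fusion partner genes BCR and ABL1 were measured in both fractions, as was the blood progenitor marker KIT, at means of 1533 and 1815 normalized counts in chromatin and nucleoplasm. Of the other blood markers, PTPRC, SPI1 and GATA1 were at 0 in every library and CD34 and CD33 did not pass 4.39 normalized counts in any. The replicates are separate samples in the labels, and p-values measure the spread between them. The number of nuclei behind a library is not given in the sources used here, so the amount of RNA per nucleus is not known.

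Heat shock proteins are chaperones that bind unfolded or partly folded proteins. HSP70 proteins hold and release short exposed stretches in a cycle that J-domain proteins start and nucleotide exchange factors such as HSP110 end, HSP90 proteins act later on kinases, receptors and other clients, and the HSP60 and HSP10 rings enclose proteins inside mitochondria. Some of these genes are transcribed at all times and others are induced when heat shock factor HSF1 binds heat shock elements, which are inverted repeats of nGAAn units, in their promoters. HSPA1A, HSPA1B, DNAJB1, HSPH1 and HSP90AA1 were taken here as inducible and HSPA8, HSP90AB1, HSPA9, HSPD1 and HSPE1 as constitutive, which is a simplification since several of the second set also respond to heat.

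Promoter windows were searched for the core of the heat shock element, the letters GAANNTTC (N is any base), which is the same pattern on both strands. RefSeq windows (build GRCh38.p14, 250 bases before to 50 after a start site) matched all 10 members, with 16 windows. The core was in 8 of these windows, from 7 of the 10 genes, and in 6.77% of all 35116 windows. The longer form GAANNTTCNNGAA, searched on both strands and overlapping the core, was in 4 of the 16 windows and in 0.49% of all windows. Those 4 windows were of 4 members (HSPA8, HSP90AA1, HSP90AB1 and HSPD1). The windows of HSPE1, HSPA9 and HSPH1 held neither run of letters. The only HSPH1 window is set on a start at chr13:31162388. Its leading long-read transcript, the canonical ENST00000320027.10 (mean of 24.1 TPM), begins at 31161927, and the bases just before that start were not searched. The HSPD1 window with the core (chr2:197499791-197500090) lies beside the HSPE1 window (chr2:197500129-197500428) but outside it. The windows of 5 members are printed, because they are the inducible pair that shares its sequence, its constitutive relative, the inducible HSP90 and the HSP70 partner, with the core in capitals. HSPA1A lies at chr6:31815293-31815592 (plus strand), HSPA1B at chr6:31827488-31827787 (plus), HSPA8 at chr11:123062087-123062386 (minus), HSP90AA1 at chr14:102086995-102087294 (minus) and DNAJB1 at chr19:14518348-14518647 (minus).
HSPA1A: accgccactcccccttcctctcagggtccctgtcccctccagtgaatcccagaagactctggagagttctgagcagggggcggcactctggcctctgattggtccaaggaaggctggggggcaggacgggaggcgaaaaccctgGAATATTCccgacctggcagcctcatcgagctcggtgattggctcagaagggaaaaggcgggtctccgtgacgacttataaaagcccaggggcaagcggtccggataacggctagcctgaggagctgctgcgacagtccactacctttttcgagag
HSPA1B: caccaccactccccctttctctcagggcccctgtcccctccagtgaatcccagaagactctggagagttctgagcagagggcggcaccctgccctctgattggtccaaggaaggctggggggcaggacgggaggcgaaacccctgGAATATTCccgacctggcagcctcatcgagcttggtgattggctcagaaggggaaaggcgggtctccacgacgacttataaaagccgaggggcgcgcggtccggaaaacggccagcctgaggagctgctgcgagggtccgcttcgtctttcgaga
HSPA8: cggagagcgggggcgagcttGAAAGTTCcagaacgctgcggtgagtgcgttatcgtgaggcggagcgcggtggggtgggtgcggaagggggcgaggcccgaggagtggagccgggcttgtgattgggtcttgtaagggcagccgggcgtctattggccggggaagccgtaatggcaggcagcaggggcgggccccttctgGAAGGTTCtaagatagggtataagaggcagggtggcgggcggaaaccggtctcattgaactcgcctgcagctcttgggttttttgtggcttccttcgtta
HSP90AA1: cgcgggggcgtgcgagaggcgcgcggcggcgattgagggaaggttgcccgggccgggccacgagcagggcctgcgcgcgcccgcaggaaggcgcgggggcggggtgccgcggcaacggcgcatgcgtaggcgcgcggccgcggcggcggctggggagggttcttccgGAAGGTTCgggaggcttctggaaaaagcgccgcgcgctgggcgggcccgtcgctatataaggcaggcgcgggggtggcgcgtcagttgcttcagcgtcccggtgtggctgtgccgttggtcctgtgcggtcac
DNAJB1: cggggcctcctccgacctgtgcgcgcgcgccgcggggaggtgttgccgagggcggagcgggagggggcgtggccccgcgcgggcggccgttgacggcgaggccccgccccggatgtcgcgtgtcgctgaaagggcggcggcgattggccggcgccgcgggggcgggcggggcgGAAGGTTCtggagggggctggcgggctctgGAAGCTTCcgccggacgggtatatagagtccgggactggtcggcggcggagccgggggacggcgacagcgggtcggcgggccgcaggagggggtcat
The core began 106 bases before the start in HSPA1A and 105 in HSPA1B. In HSPA8 it began 230 and 50 bases before the start, in HSP90AA1 83 and in DNAJB1 77 and 47. The HSPA1A and HSPA1B windows had 277 identical bases of 299 aligned without gaps at a shift of 1. A match of letters is a description of the window and not a measured binding site.

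All 7 chaperones with a short-read row were lower in chromatin than in nucleoplasm, by a log2 fold change of -1.46 to -2.31, and in each the 3 chromatin libraries lay below the 3 nucleoplasm libraries. The median of the 7 was -1.59, beside -0.02 over all tested genes and -0.39 over the 12493 tested protein-coding genes. Being lower in chromatin at an adjusted p under 0.05 was common, however: it held for 45.2% of all tested genes and for 57.5% of the protein-coding ones (44.2% and 30.2% were higher), and all chromatin libraries lay below all nucleoplasm libraries in 46.0% of tested genes. Past a 4-fold difference were 3 of the 7 members (HSP90AA1, HSP90AB1 and HSPD1), against 8.47% of tested genes and 5.72% of protein-coding genes. No member was called in the chromatin direction, against 21.2% of tested genes. The abundant glycolytic mRNA GAPDH, for comparison, was at -2.35. Together the 7 rows held 0.227% to 0.287% of the gene total in chromatin libraries and 0.711% to 0.743% in nucleoplasm libraries.

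**Figure D1:**
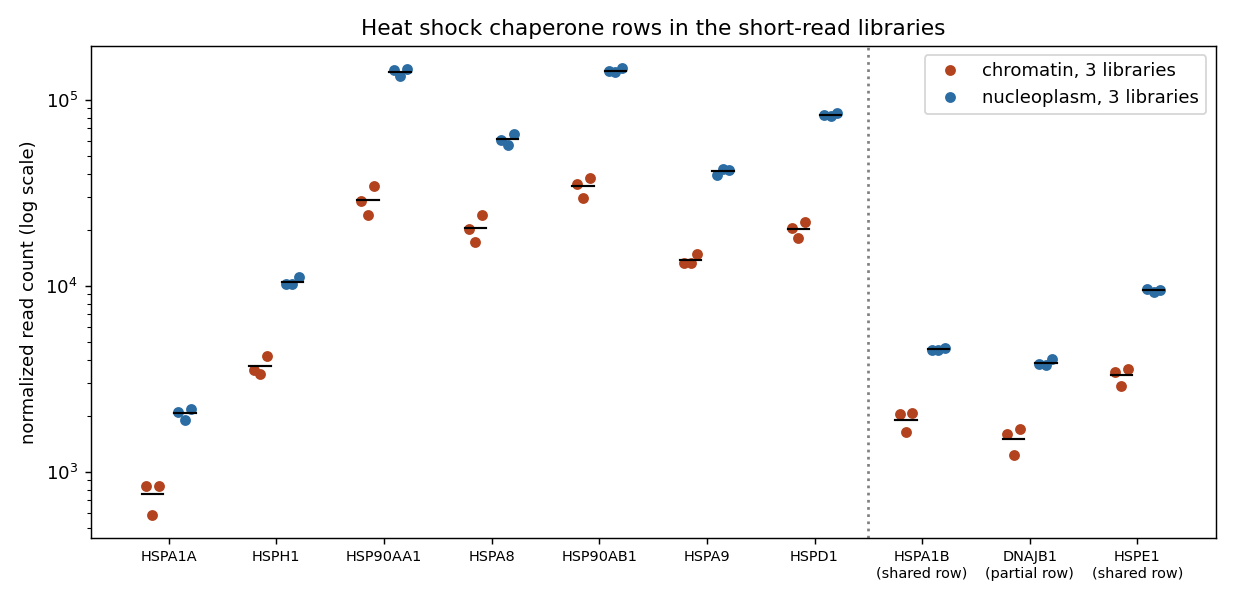
Normalized read counts (log axis) of the 10 chaperones in each of 3 chromatin and 3 nucleoplasm libraries, with the mean as a black line; the 3 genes right of the dotted line are shown by a row that covers them but is not named for them. In every row the chromatin points lie below the nucleoplasm points.

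HSPA1A encodes the stress-inducible HSP70 and is a single-exon gene at chr6:31815543-31817946 (hg38, plus strand). Its normalized counts were 841, 581 and 839 in the chromatin libraries and 2084, 1903 and 2178 in nucleoplasm. Its second chromatin library was the low one. By this row alone it was the lowest of the 7 in both fractions per kilobase of transcript. On alternate contigs, 7 further rows hold stretches of both HSPA1A and HSPA1B. With them summed the value lay above HSPH1, but that sum is not of HSPA1A alone. The log2 fold change of the HSPA1A row was -1.46 (standard error 0.14, limma adjusted p = 1.01e-05).

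HSPA8 encodes HSC70, the constitutive cytosolic HSP70, at chr11:123057489-123063230 (minus strand), and its row also spans the intronic snoRNAs SNORD14C, SNORD14D and SNORD14E. Chromatin libraries held 20273, 17167 and 24103 normalized counts and nucleoplasm libraries 60986, 56831 and 65688. The fractions did not overlap, and the log2 fold change was -1.59 (standard error 0.12, limma adjusted p = 1.90e-06). The ratio of the HSPA1A row to HSPA8 was 0.0415, 0.0339 and 0.0348 in chromatin and 0.0342, 0.0335 and 0.0332 in nucleoplasm. These ratios overlapped between the fractions. With the alternate contig rows added to HSPA1A the ratio was 0.362, 0.298 and 0.305 in chromatin and 0.294, 0.290 and 0.286 in nucleoplasm, and did not overlap. Those rows also hold stretches of HSPA1B, so this second ratio is not of HSPA1A alone. Both the size of the ratio and the overlap depend on which rows are counted.

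HSPH1 encodes HSP105, the HSP110-type exchange factor of HSP70, at chr13:31134973-31162388 (minus strand). It had 3523, 3331 and 4180 normalized counts in chromatin and 10265, 10169 and 11110 in nucleoplasm. The log2 fold change was -1.52 (standard error 0.08, limma adjusted p = 3.00e-07). The 2 sets of libraries were well apart, and the ratio of HSPH1 to HSPA8 overlapped between the fractions.

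HSP90AA1 encodes the inducible cytosolic HSP90 (chr14:102080742-102139699, minus strand), and HSP90AB1 the constitutive one (chr6:44246166-44253888, plus strand). HSP90AA1 had 28352, 23936 and 34141 normalized counts in chromatin against 143594, 134463 and 145613 in nucleoplasm. Its log2 fold change of -2.31 (standard error 0.12, limma adjusted p = 1.76e-07) was the lowest of the 7. HSP90AB1 had 35210, 29551 and 37756 against 142251, 140166 and 147517, a log2 fold change of -2.08 (standard error 0.09, limma adjusted p = 6.87e-08). The ratio of HSP90AA1 to HSP90AB1 was 0.805, 0.810 and 0.904 in the chromatin libraries and 1.01, 0.959 and 0.987 in nucleoplasm. This ratio of counts, which is not corrected for transcript length, was lower in every chromatin library than in any nucleoplasm library.

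HSPA9 encodes mortalin, the mitochondrial HSP70, at chr5:138553756-138575675 (minus strand), and its row also spans SNORD63 and SNORD63B. Its chromatin libraries held 13173, 13286 and 14719 normalized counts and its nucleoplasm libraries 39173, 42581 and 42073. The log2 fold change was -1.59 (standard error 0.06, limma adjusted p = 3.81e-08). HSPD1 encodes HSP60, the ring chaperonin of the mitochondrial matrix, at chr2:197486584-197516737 (minus strand). It had 20543, 17929 and 22009 normalized counts in chromatin and 82643, 82072 and 84768 in nucleoplasm. Its log2 fold change was -2.05 (standard error 0.08, limma adjusted p = 3.29e-08). HSPD1 was higher than HSPA9 in every library, and the ratio of the 2 rows was 1.56, 1.35 and 1.5 in chromatin and 2.11, 1.93 and 2.01 in nucleoplasm. This ratio did not overlap between fractions either.

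The inducible members (HSPA1A, HSPH1 and HSP90AA1) had a median log2 fold change of -1.52 and the constitutive members (HSPA8, HSPA9, HSP90AB1 and HSPD1) one of -1.82. HSP90AA1 was the lowest member and HSPA1A the highest, both inducible, and the constitutive genes ran from -1.59 to -2.08, all below the inducible median. The difference of the medians, 0.30, fell to 0.06 with means in place of medians. The ranges of the 2 classes overlapped, and no test was run over so few genes.

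The count of 3 members past the 4-fold limit rests on genes near it: HSPD1 at -2.05 and HSP90AB1 at -2.08 were just inside, and HSPA9 at -1.59 and HSPA8 at -1.59 were the nearest outside. Without the second chromatin library, and with DESeq2, it was 1 (HSP90AA1). Scaling moved it further. When each library was given one ERCC total all 7 were past 4-fold, as were 34.4% of tested genes, and with the same gene total 0 of 7 were, beside 3.83% of tested genes. The median of all tested genes moved to -1.33 under the first and to 0.44 under the second, and every member was lower in chromatin under each scaling. Relative to that median, the median of the members was at -1.57, -1.58 and -1.57 on the deposited, ERCC and gene total scales.

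**Figure D2:**
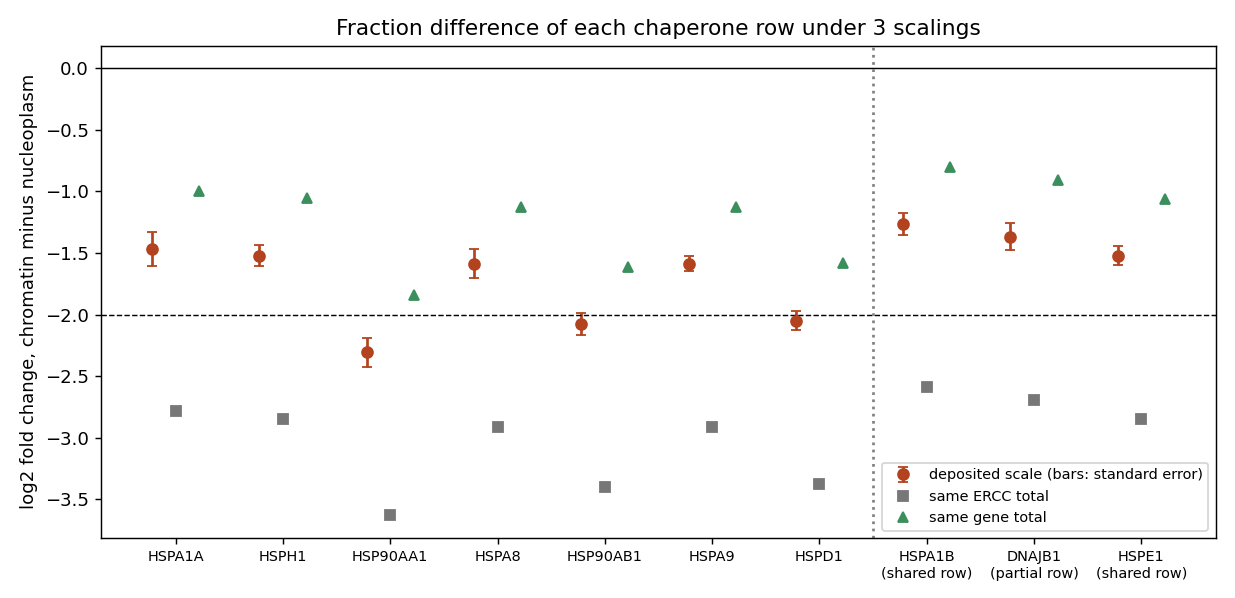
Log2 fold change of chromatin minus nucleoplasm for each chaperone row under the deposited scale (circles, bars are standard errors), the same ERCC total (squares) and the same gene total (triangles); the dashed line marks 4-fold. HSP90AA1, HSP90AB1 and HSPD1 lie below the other named members under each scaling.

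Counts per kilobase of canonical transcript set genes side by side only roughly. The canonical transcript did not lead the long reads at HSPA8, HSPA9 or HSP90AB1, and reads of stretches shared with other loci were not removed. On this scale HSP90AB1 was the highest member in both fractions, at 13375 ± 1644 in chromatin and 56091 ± 1483 in nucleoplasm normalized counts per kilobase (SD, n = 3). In chromatin HSPA8 (9061 ± 1535), HSPD1 (8980 ± 921) and HSP90AA1 (8925 ± 1586) followed and lay within their spread. In nucleoplasm the order behind HSP90AB1 was HSP90AA1 (43750 ± 1840), HSPD1 (37043 ± 633) and HSPA8 (27018 ± 1957). The nucleoplasm values of these 4 genes lay apart by more than their SD, while 3 of them could not be ordered in chromatin. HSPA9, HSPH1 and the HSPA1A row held the last 3 places, in this order, in both fractions. With the alternate contig rows summed, the value per kilobase of the HSPA1A transcript was 2751 ± 539 in chromatin and 7386 ± 480 in nucleoplasm. That was above HSPH1 (701 ± 84.9 and 2005 ± 98.7), but the sum also takes in stretches of HSPA1B and is not a level of HSPA1A alone.

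The 3 genes without a row of their own are described by the row over their exons. DNAJB1, the J-domain partner that delivers clients to HSP70, spans chr19:14514769-14560391 (minus strand) in the annotation, and the row at its exons covers part of that span (Jaccard index 0.33) and no other gene of the strand. That row held 1589, 1221 and 1696 normalized counts in chromatin and 3772, 3731 and 4022 in nucleoplasm, and its log2 fold change was -1.37 (standard error 0.11, limma adjusted p = 3.93e-06). HSPA1B, the near copy of HSPA1A, lies in a row that also covers SNHG32 and 2 snoRNAs, which held 2039, 1624 and 2055 normalized counts in chromatin libraries and 4482, 4530 and 4626 in nucleoplasm libraries (log2 fold change -1.26, standard error 0.09, limma adjusted p = 1.37e-06). HSPE1, the HSP10 lid of the HSP60 ring, lies in a row that also covers the readthrough gene HSPE1-MOB4 and MOB4, with 3440, 2882 and 3546 normalized counts in chromatin and 9599, 9223 and 9451 in nucleoplasm (log2 fold change -1.52, standard error 0.08, limma adjusted p = 1.70e-07). All 3 rows went the same way as the 7 named ones, and the part of HSPA1B or HSPE1 in them cannot be told apart from that of their neighbours.

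Chaperone genes have many near copies, and a 50-base read from a shared stretch does not name its gene. Of the 2351 stretches of 50 bases in the HSPA1A transcript, 75.1% were also in HSPA1B and 97.9% were also on alternate contigs of the chromosome 6 histocompatibility region. The deposited table held 7 further rows on 4 such contigs, each with stretches of both HSPA1A and HSPA1B. Their chromatin means ran from 768 to 920 normalized counts and their nucleoplasm means from 2107 to 2544, near the 754 and 2055 of the HSPA1A row itself. Their log2 fold changes were from -1.48 to -1.39. The 8 rows summed to 6603 ± 1294 in chromatin and 17727 ± 1152 in nucleoplasm (SD, n = 3), with a log2 difference of -1.44. This sum takes in both genes and is not a level of HSPA1A alone. How the counting divided reads between these rows is not given in the sources used here, so the level of HSPA1A is uncertain, and each row was lower in chromatin.

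**Figure D3:**
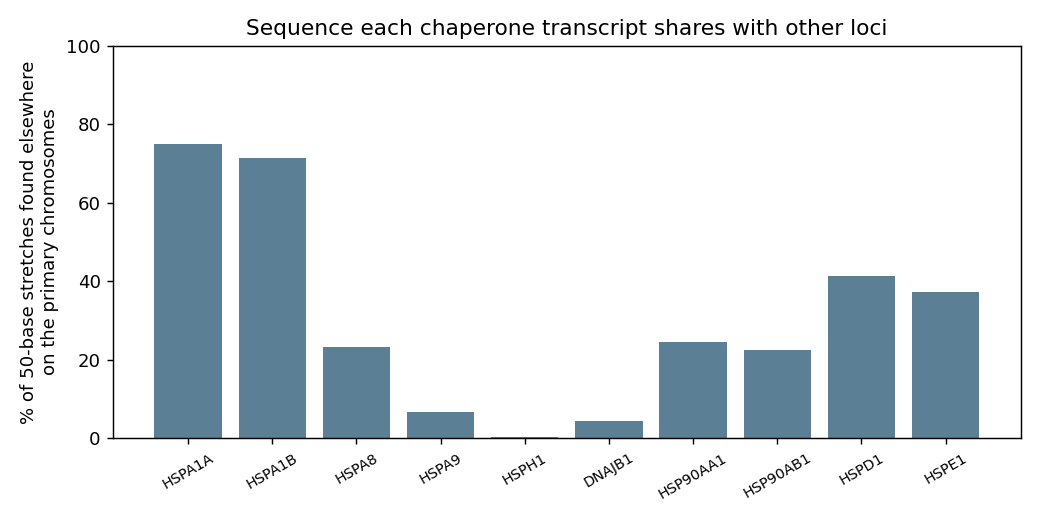
Percent of the 50-base stretches of each canonical chaperone transcript that also occur elsewhere on the primary chromosomes of hg38. HSPA1A (75.1%) and HSPA1B (71.6%) share the most, and HSPH1 (0.212%) the least.

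Elsewhere on the primary chromosomes, 41.3% of the stretches of HSPD1 recurred, 24.6% of HSP90AA1, 23.2% of HSPA8 and 22.5% of HSP90AB1, but only 6.57% of HSPA9 and 0.212% of HSPH1. Rows named for pseudogenes of the members, all HSP90AA and HSP90AB copies included, numbered 75, of which 52 were above 0 in some library and 40 passed the filter on low values. Among those 40, 30 were lower in chromatin, 8 were higher and 2 did not pass the test, beside 45.2% lower and 44.2% higher of all tested genes. The 8 higher rows had nucleoplasm means of at most 12.3 normalized counts. They met the filter through their chromatin libraries, which favours that direction. Some of the 30 lower rows had chromatin means below 10 normalized counts. Those rows met the filter through their nucleoplasm libraries, which favours the lower direction in the same way. The 3 most abundant pseudogene rows were HSP90AB3P (1956 in chromatin and 8171 in nucleoplasm, log2 fold change -2.07), HSP90AA2P (1100 and 6034, -2.47) and HSPD1P1 (1084 and 5024, -2.22). The parent genes HSP90AB1, HSP90AA1 and HSPD1 were at -2.08, -2.31 and -2.05, and whether their reads came from the pseudogene or from the parent was not tested. The 75 rows summed to 9316 normalized counts in chromatin and 39846 in nucleoplasm. The members with the fewest shared stretches, HSPH1 and HSPA9, were at -1.52 and -1.59. HSPD1, HSP90AA1 and HSP90AB1, with more, were at -2.05, -2.31 and -2.08. HSPA1A, with the most (75.1%), was at -1.46, and HSPA8, with 23.2%, was at -1.59. The part of shared stretches in these differences was not tested.

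Across a broader set of 101 chaperone-related genes in 8 lists, 86 were tested, 70 were lower in chromatin, 10 were higher and 6 did not pass, beside 45.2% lower and 44.2% higher of all tested genes and 57.5% and 30.2% of protein-coding ones. Their median log2 fold change was -1.25. All 14 subunits of the cytosolic chaperonin TRiC and of prefoldin, which fold and deliver actin and tubulin, were lower, with a median of -2.03. Of these subunits 8 were past 4-fold, against 8.47% of tested genes and 5.72% of protein-coding genes. Their values ran from PFDN1 at -1.39 to PFDN2 at -3.32. Co-chaperones of HSP70 and HSP90 were lower in 16 of 18, from CHORDC1 at 0.61, which was higher in chromatin, to HSPBP1, an exchange factor, at -2.48. All 9 tested mitochondrial chaperones and proteases were lower, from TIMM44 (-0.19) to the protease subunit CLPP (-2.21).

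For the counts that follow, 45.2% of all tested genes were lower and 44.2% higher, and 57.5% and 30.2% of protein-coding ones. The ER chaperones were lower in 12 of 13, with 1 not past the test and a median of -1.85. They ran from DNAJC10, a disulfide reductase, at -0.33 to SDF2L1 at -2.79. J-domain proteins were lower in 13 of 17 and higher in 3, with DNAJB6 higher at 0.72 and DNAJC8 lowest at -2.15, and a median of -0.31. HSP70 family and HSP110 genes outside the members were lower in 4 of 8, near the share of all tested genes. Of these 8 genes, 2 were higher and 2 did not pass the test, with a median of -0.38. Among them HSPA6, a strictly inducible HSP70, was higher at 1.51 and HSPA13 lower at -1.53. HSPA6 was low in both fractions, with means of 57.9 (chromatin) and 19.8 (nucleoplasm) normalized counts.

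Of the 5 heat shock factors and regulators tested, 3 were higher in chromatin (beside 44.2% of all tested genes), 1 (HSF1, at -0.64) was lower and 1 did not pass, with HSF2BP at 1.71 and a median of 0.70. Of the 8 small heat shock proteins only 2 were tested, HSPB1, a cytosolic holdase, at -2.27 and HSPB6 at 1.86. HSPB6 was low, with means of 24.2 (chromatin) and 6.29 (nucleoplasm) normalized counts. Its chromatin libraries, where it was higher, could carry it past the filter on low values, so its direction is not read further. Of the 86 tested genes of these lists none passed 4-fold in the chromatin direction, against 21.2% of all tested genes. In the nucleoplasm direction 19 did, against 8.47% of all tested genes and 5.72% of protein-coding genes. Under the same gene total, where the median of all tested genes was 0.44, 22 of the list genes were higher in chromatin. Under the same ERCC total, where that median was -1.33, none was. The share of all tested genes past the test under these scalings is not given here, so the counts are not read as particular to the lists.

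**Figure D4:**
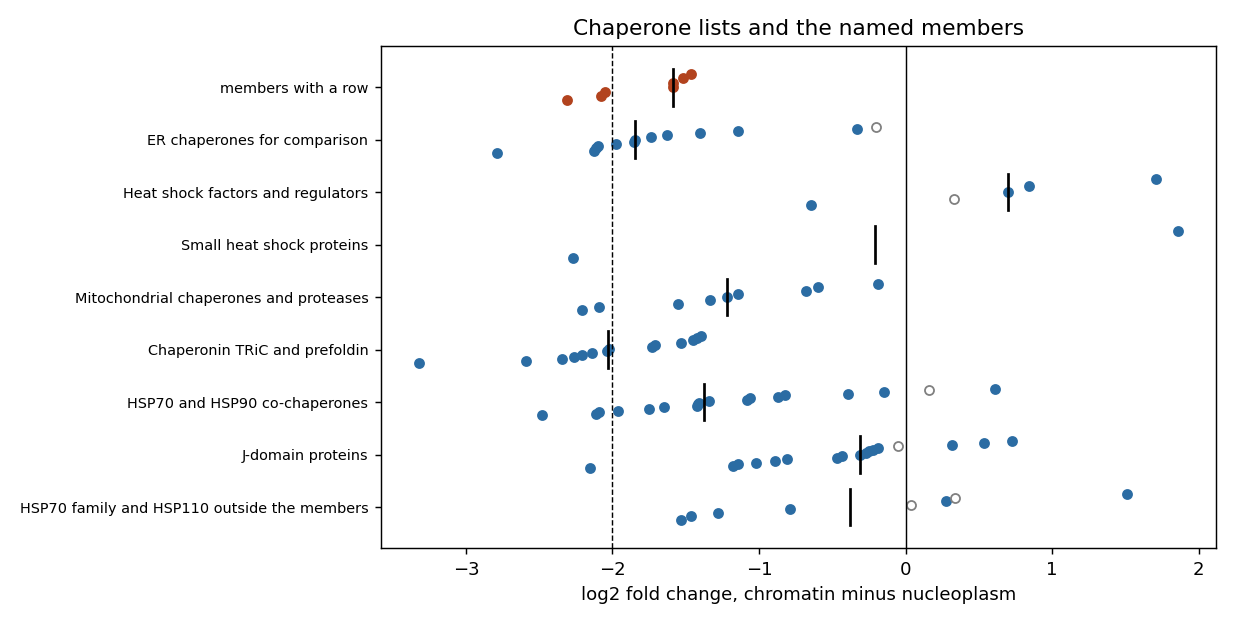
Log2 fold change of chromatin minus nucleoplasm of each tested gene in 8 chaperone lists and of the 7 named members; filled points passed an adjusted p of 0.05, open points did not, the black tick is the median and the dashed line is at -2. All 7 members and all TRiC and prefoldin subunits lie left of 0.

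In the long reads of chromatin, where TPM is a transcript's share of the library corrected for its length, the HSP90 genes led. HSP90AA1 summed to 713 and 1184 TPM in the 2 replicates and HSP90AB1 to 524 and 844. HSPA8 followed with 237 and 391. By transcripts named for them these genes stood above every other member in both replicates, but HSPD1 reached 409 and 564 TPM, above HSPA8, when every same-strand transcript over its exons was counted. HSPD1 had 92.9 and 110, HSPA9 82.5 and 60.5, and HSPA1A 35.5 and 47.6. DNAJB1 had 41.8 and 32.9, HSPE1 50.9 and 22.9, HSPH1 19.7 and 39.6 and HSPA1B 16 and 7.04. Between replicates several of these moved by more than the steps between neighbours, so the order of HSPA1A, DNAJB1, HSPE1 and HSPH1 differed between the 2 libraries, while HSPA9 was above them in both. With 2 chromatin libraries and no nucleoplasm long reads, there was no fraction to compare.

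The canonical transcript had the highest mean TPM at 5 of the members (HSPA1A, HSPA1B, HSPD1, HSPH1 and HSP90AA1) and not at HSPA8, HSPA9, HSP90AB1, DNAJB1 or HSPE1. HSP90AB1 was given to 1 transcript in each replicate, ENST00000371554.2 at 524 TPM in the first and ENST00000353801.7 at 844 TPM in the second. At HSP90AA1 the canonical transcript ENST00000216281.13 (228 and 825 TPM) had the highest mean, but in the first replicate an assembled transcript reaching 35628 bases upstream of the canonical start (315 and 347) was above it. HSPA8 was led by ENST00000532091.1, annotated as a retained intron, at 169 and 339 TPM. HSPA9 was led by an assembled transcript (33.3 and 24.5 TPM) with its canonical transcript next (23.7 and 20.4). DNAJB1 was led by an assembled transcript that ran 47583 bases upstream of the canonical start, at 31.5 and 17.9 TPM. That transcript (chr19:14516636-14565980) held 75.5% and 54.4% of the DNAJB1 sum and also covers the whole span of TECR, which lies on the opposite strand. The assignment of reads to transcripts by the assembler varied between the replicates at HSP90AB1 and HSPE1.

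Opposite-strand transcripts with no annotated gene on their strand, at least 80% of their span inside the member, were assembled at 6 of the 10 genes. HSPD1 had 498 and 584 TPM on the opposite strand, 84.3% and 84.1% of its total, or 54.9% and 50.8% where every same-strand transcript over its exons was counted. HSPA8 had 201 and 371 (45.9% and 48.7%), HSPA9 66.2 and 69.0, HSPH1 17.7 and 24.7, HSP90AA1 267 and 888 and HSP90AB1 342 and 387. The single-exon HSPA1A and HSPA1B had none, nor did HSPE1 or DNAJB1. On the opposite strand TECR overlaps DNAJB1, and HSPD1 covers the whole of HSPE1. The rule of no annotated gene therefore left no room for one at HSPE1. Opposite-strand transcripts that met the rule were common: 73.3% of 6315 protein-coding genes with a mean named TPM of at least 10 had one, with a median of 31.8% of the TPM.

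The ends of the most abundant opposite-strand transcript lay at varying distance from those of the canonical transcript. They were 3 and 3 bases away at HSPA8, 25 and 9 at HSP90AB1, 4 and 29 at HSPA9, 0 and 133 at HSPD1, 306 and 12 at HSP90AA1 and 1430 and 106 at HSPH1. Less abundant ones at HSPA9 and HSPD1 had an end 1135 and 1272 bases away. The short-read libraries were directional, and their table held no row that spanned these genes on the opposite strand. Of its opposite-strand rows, that of ENSG00000288061 overlapped HSPA8 at its start (means of 834 and 142 normalized counts in chromatin and nucleoplasm libraries, log2 fold change 2.54, limma adjusted p = 1.61e-08), and a 316-base row lay within HSP90AA1 (34.0 and 9.49). The authors state that their direct cDNA long-read libraries lose the strand of origin, and that many transcripts were assembled opposite to the reference strand for this reason. How the long reads were given a strand before deposit is not stated for this table. RNA of the opposite strand cannot be told apart from strand assignment in these values.

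**Figure D5:**
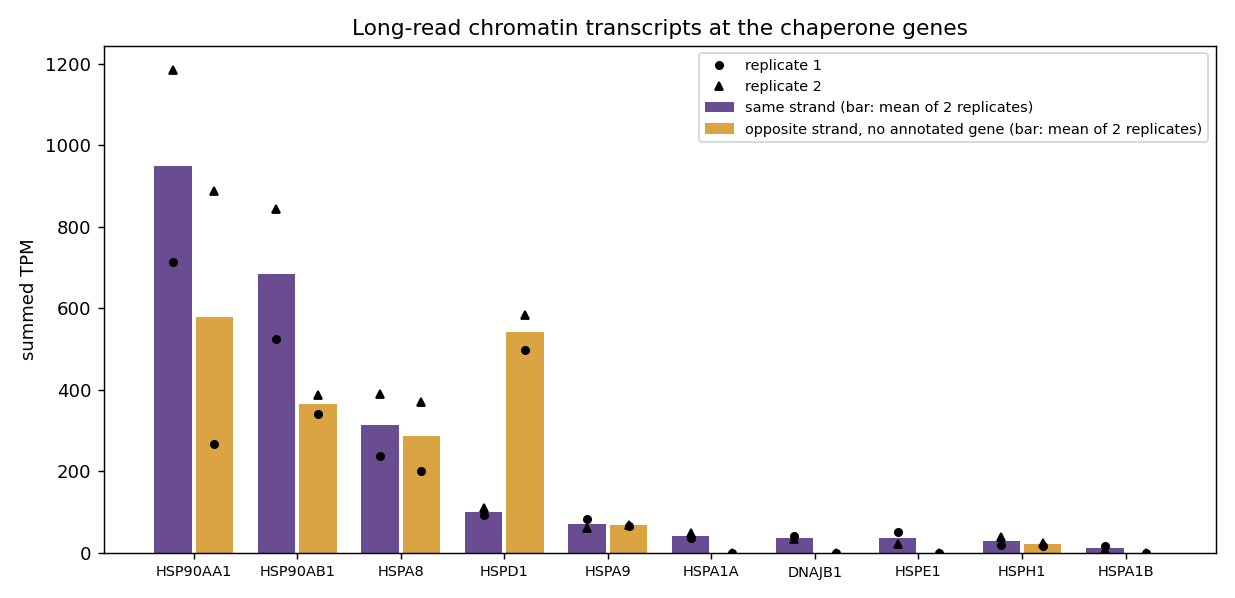
Summed TPM of long-read chromatin transcripts on the strand of each chaperone gene and on the opposite strand with no annotated gene, as the mean of 2 replicates (bars) with each replicate as a point. HSP90AA1 has the highest sum on its own strand and HSPD1 has more on the opposite strand than in transcripts named for it.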

How the data were processed

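Groups came from the sample titles. For short reads the authors aligned to hg38 with HISAT2 2.1.0, assembled with StringTie and deposited a size-factor-normalized signal for each gene. Dividing every value by what 1 read is worth returned whole reads for 100% of values (tolerance 0.01). For long reads the authors deposited TPM per transcript, from minimap2 and StringTie, which carries no depth. Rows were named with GENCODE release 44. The test was limma 3.58.1 (R 4.3.3, trended variance, no covariates, Benjamini-Hochberg adjusted) on log2(value + 1) of genes spanning over 200 bases that reached 10 normalized counts in 3 or more libraries, and folds are on that scale. A call needed an adjusted p under 0.05 and a 4-fold difference. Other fits used recovered reads (edgeR 4.0.16, DESeq2 1.42.0), other pseudocounts, filters, scalings and fold minimums, a replicate block and leave-one-out sets of libraries. Summing alternate contig rows, counting covering rows and keeping only pseudogenes of the members were chosen after seeing the data. Genes named were the members, the highest and lowest gene past the test in each list, the 3 most abundant pseudogenes, MALAT1, GAPDH and leading long-read transcripts. The fits were tested on simulated data. Members and lists were chosen with earlier results of these data known.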

Additional observations from a re-analysis of the deposited data

How the results depend on the processing

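All 7 members were lower in chromatin, with adjusted p values of at most 0.0001, under the alternatives run for them, with log2 fold changes from -3.63 to -1.0. The count of members past 4-fold, 3, was 1 with DESeq2, 7 with the same ERCC total, 0 with the same gene total and 7 with a fold minimum of 2; leaving out each short-read library gave 1 (without the second chromatin library) to 3. List genes higher in chromatin numbered 10, 0 with the same ERCC total and 22 with the same gene total. The median of all tested genes moved as well, to -1.33 and 0.44. The inducible minus constitutive median, 0.30, was 0.35 with strictly inducible members (HSPA1A alone) and 0.061 with means. Correlations of deviations between fractions were 0.09, 0.05 and 0.06 for libraries of the same number, each the highest for its own number. The authors state that the libraries of both fractions came from 3 independent cultures. The main fit did not pair libraries by number. With the replicate block the count was 3, and all 7 members were lower in chromatin. The sum of HSPA1A and HSPA1B rows was not run, since HSPA1B has no row of its own, and the alternate contig sum holds stretches of both genes.

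Long-read TPM depended on which transcripts count. With reference transcripts only, means were 42.6 for HSPA9, 12.6 for DNAJB1, 540 for HSP90AA1 and 70.8 for HSPD1, from 71.5, 37.3, 949 and 101; with any same-strand transcript over an exon, HSPA1B was 34.2 and HSPD1 487, from 11.5 and 101. TPM holds no depth, and 2 replicates limit its precision.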
